A study of Populus tremula x Populus alba with 10 samples.

Results

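The genes described here are 104 of the 31823 genes counted in bulk RNA of hybrid poplar stems. They were chosen on measured values, the counts of a gene scaled to a common library total (CPM, counts per 1000000) of the 6 bulk libraries. A gene was taken when drought libraries 1 and 3 each had at least 5 CPM and at least 4 times the highest control, while drought library 2 stayed below 1.5 times the highest control. All plants were wild type (Populus tremula x alba, INRA clone 717 1B4), raised in vitro, potted in peat and grown for 6 weeks. Controls were then watered near field capacity, a soil moisture of 0.46 m3/m3. Drought plants went without water until the soil reached 15% of field capacity and were held there, for a treatment of 14 days. Bulk libraries were made from stem RNA, 3 per treatment, and nuclei libraries from internode 15 of 1 plant each, 2 per treatment. The series' design text names internodes 14 and 15 for the nuclei. No label ties a plant of one assay to a plant of the other, so bulk drought 2 and nuclei drought 2 share only a number.

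A stem under drought loses turgor, and the hormone abscisic acid, made as water runs short, changes the transcription of many genes, among them genes for protective proteins and for compounds that hold water in the cell. Growth of the cambium, the dividing layer that makes wood and phloem, slows under water shortage. No file names the genes, which are therefore given by ID and no role is stated for any of them.

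Bulk libraries held 47900128 to 57594846 counts and nuclei libraries 1930997 to 4346198 gene UMIs (unique molecular identifiers, 1 per captured molecule). Over genes with at least 10 counts in a pair of libraries, bulk drought 2 stood apart from the other drought libraries. The chi-square per degree of freedom, near 1 for sampling noise alone, was 130.8 against drought 1 and 157.9 against drought 3. It was 10.09 between drought 1 and 3, and 14.36 to 28.84 between controls. In log2 CPM over 24796 genes, the difference of drought 2 from the average control had a slope of 0.60 on the difference of drought 1 and 3 from that average. Over the 6840 genes at least 1 log2 unit from the controls on that axis, its median position was 0.62, where 0 is the control mean and 1 the mean of drought 1 and 3. Drought 1 and 3 define this axis and were not left out of it in turn. A value below 1 therefore does not by itself set drought 2 apart. Its most abundant gene took 3.03% of its counts, against 1.83% and 1.51% in drought 1 and 3 and at most 0.662% in controls. Whether that share has a part in the position of drought 2 was not tested. The nuclei drought libraries were shallower than the controls, with a median of 347 and 262 gene UMIs per barcode against 732 and 513.

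In the bulk libraries the 104 genes stood low in 4 libraries and high in 2. Their median level was 2.27, 2.24 and 2.04 CPM in controls 1, 2 and 3, then 20.1 CPM in drought 1, 2.68 CPM in drought 2 and 19.98 CPM in drought 3. Summed over the genes, they took 0.0517%, 0.0523% and 0.0512% of the counts in controls, 0.407% in drought 1, 0.0645% in drought 2 and 0.397% in drought 3. These values chose the genes and are given as a description. In bulk tissue, more cells that make a transcript and more transcript per cell cannot be told apart.

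**Figure D1:**
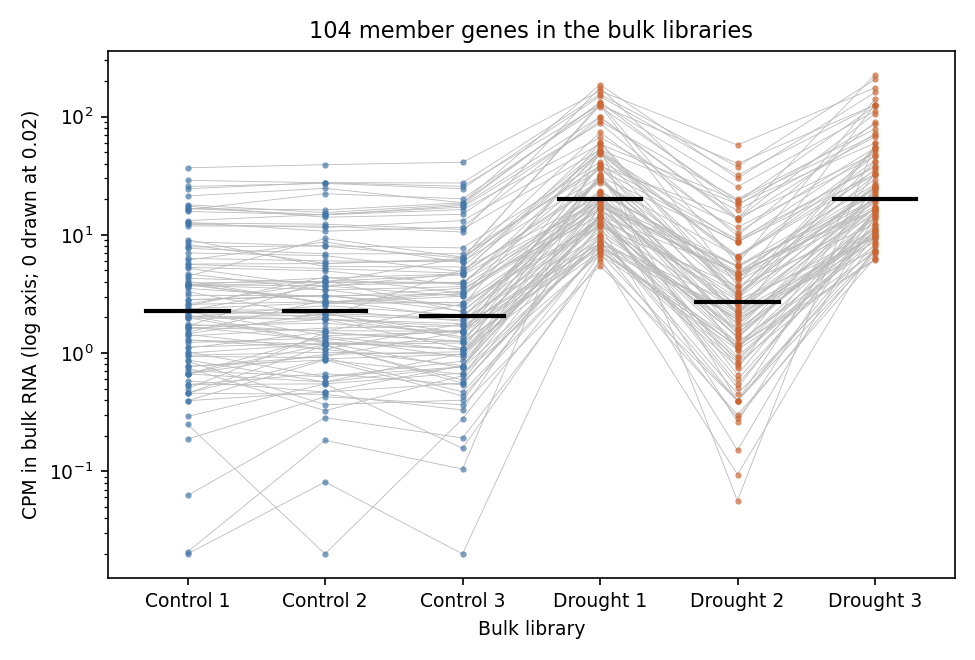
CPM of each of the 104 genes in the 6 bulk libraries, on a log axis, with grey lines joining 1 gene and black bars at the median of a library. Drought 1 and 3 have medians of 20.1 and 19.98 CPM, and drought 2 lies beside the controls with a median of 2.68 CPM.

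Drought library 2 was not at the control level for all of them. Its CPM was above every control for 58 of the 104 genes, within the range of the controls for 28 and below every control for 18. Relative to the highest control it ran from 0.176 to 1.50 times, with a median of 1.04. Its position between the control mean and the mean of drought 1 and 3 had a median of 0.07 and ran from -0.25 to 0.40. The genes are thus raised in drought 1 and 3 alone by the 1.5-fold limit, and for 58 of them drought 2 was still the highest library after drought 1 and 3.

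Drought 1 and 3 were close to each other for these genes, which the rule favours by asking both to be high. They were also the closest pair of bulk drought libraries over genes with at least 10 counts. The values that follow were not taken over all genes or the other classes, so they are not read as a trait of the list. The CPM of drought 1 was 0.691 to 1.59 times that of drought 3, with a median of 0.996, and 99 of the 104 genes were within 1.5 times of each other in the pair. Drought 1 was higher for 51 genes and drought 3 for 53. The lower of the pair was a median of 6.24 times the highest control. This ratio was below 5 for 31 genes, from 5 to below 8 for 33, from 8 to below 16 for 25, and 16 or more for 15. Most of the genes had reads in watered stems, since 102 had counts in every control and 20 had a highest control below 1 CPM.

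The largest read shares in drought 1 and 3, which depend on transcript length as well as abundance, belonged to 4 genes. PtXaAlbH.17G024000 had 11.9, 11.8 and 10.6 CPM in controls and 176, 13.8 and 226 CPM in drought 1, 2 and 3. Drought 2 was just above the controls, and the lower of drought 1 and 3 was 14.8 times the highest control. PtXaAlbH.03G064300 had 24.5, 27.6 and 27.4 CPM in controls and 154, 37.6 and 207 CPM under drought, with drought 2 at 1.36 times the highest control. PtXaAlbH.09G025900 had 21.3, 24.7 and 18.7 CPM in controls against 186, 30.0 and 160 CPM. PtXaAlbH.10G079600 had 36.9, 39.2 and 41.1 CPM in controls against 164, 57.5 and 175 CPM. In each of the 4, drought 2 lay above all controls and far below the other drought libraries.

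The widest ratios came from genes with few control reads. PtXaAlbH.13G084400 had 1, 9 and 6 counts in controls and 2706, 3 and 2894 counts in drought 1, 2 and 3. Drought 2 lay within the range of the controls, and the lower of drought 1 and 3, as CPM, was 309 times the highest control. PtXaAlbH.19G080500 had 0, 4 and 0 control counts against 306, 5 and 397 under drought, a ratio of 78.6 that rests on 1 control library with 4 counts. PtXaAlbH.16G007400 had 22, 22 and 19 control counts against 821, 14 and 770, a ratio of 34.6, with drought 2 below every control in CPM. For PtXaAlbH.16G106300 the control counts were 12, 0 and 16 and the drought counts 386, 15 and 362, a ratio of 26.8. At 14 and 15 counts in drought 2, the last 2 genes were as low there as in the watered stems.

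The genes at the limits of the rule show how it divides a continuous range. The lowest drought CPM among the 104 was 5.47, in PtXaAlbH.05G196800, and the nearest gene left out by the 5 CPM floor, PtXaAlbH.04G074300, had 4.74. For the 4-fold limit the nearest ratios were 4.004 in PtXaAlbH.10G079600, inside, and 3.97 in PtXaAlbH.14G100300, outside. For the limit on drought 2, PtXaAlbH.06G015100 stood inside at 1.498 times the highest control and PtXaAlbH.14G074600 outside at 1.51. The last gene had 10.9, 10.9 and 9.15 CPM in controls and 125, 16.4 and 79.9 CPM under drought, the same shape as its neighbours inside.

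Drought 2 was then read across every gene that met the drought 1 and 3 conditions. These were 745 genes, of which 4 had no control count and so no ratio. Among the other genes, drought 2 was below the highest control for 46, 1 to below 1.5 times for 58, 1.5 to below 2 times for 61, 2 to below 3 times for 140, 3 to below 4 times for 123, 4 to below 8 times for 163, 8 to below 16 times for 67 and 16 times or more for 83. The steps of this scale differ in width, so no shape is read from the counts. The steps on either side of 1.5 times are of equal width in the ratio itself, though not in its log2, and held 58 and 61 genes. The 104 genes are thus the low end of the range, with no gap at the limit. The 324 genes from 1.5 to below 4 times are called intermediate here, and the 313 genes at 4 times or more are called raised in all 3.

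**Figure D2:**
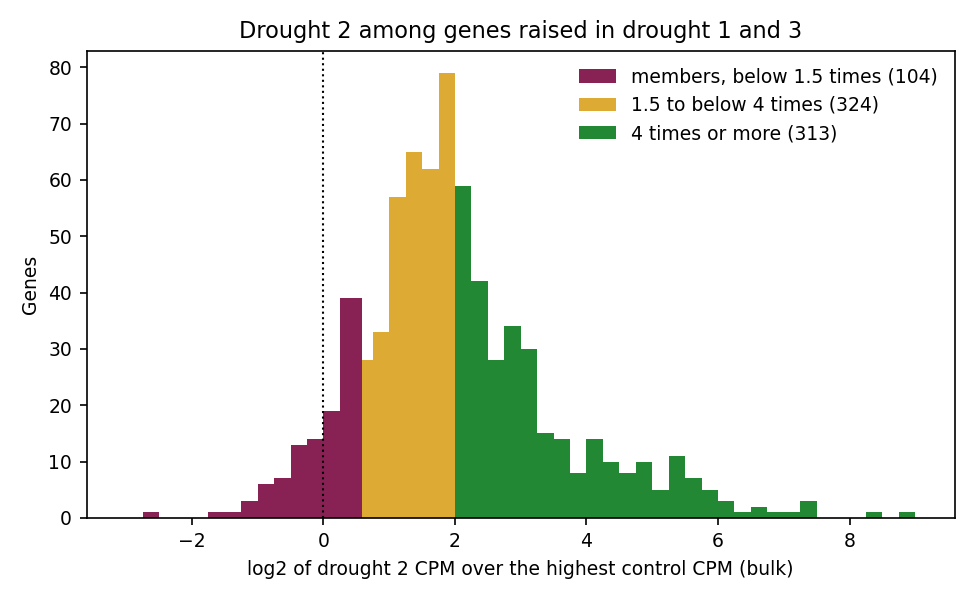
Number of genes by the log2 ratio of bulk drought 2 to the highest control, among genes at least 4 times the highest control in drought 1 and 3. The 104 genes below 1.5 times form the left end of the range, followed by 324 genes at 1.5 to below 4 times and 313 at 4 times or more. The dotted line marks equality with the highest control. The bars on either side of 1.5 times differ in width from the other bars.

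The 3 classes differed in drought 2 by the way they were drawn, and their other bulk values are set side by side as a description. The median ratio of the lower of drought 1 and 3 to the highest control was 6.24 in the 104 genes, 6.27 in the intermediate class and 15.1 in genes raised in all 3. The median highest control was 2.56, 5.11 and 3.20 CPM in that order. Median drought 2 levels were 2.68, 13.4 and 29.6 CPM, and median drought 1 levels 20.1, 39.9 and 64.4 CPM. Drought 2 was below both other drought libraries for all 104 genes and all 324 intermediate genes, which the rule fixes, and for 278 of the 313 genes raised in all 3. It was above both for 23 of the 313.

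The same rule with another drought library as the low one found 0 genes with drought 1 low and 0 with drought 3 low. The mirror rule for falling genes asked for at least 5 CPM in every control, with the lowest control at least 4 times as high as drought 1 and 3. It found 789 genes, and drought 2 was above the lowest control divided by 1.5 for 18 of them. These counts describe these 3 drought libraries.

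In the edgeR quasi-likelihood fit of 3 drought against 3 control bulk libraries, 54.2% of 26448 genes tested were called at a false discovery rate (FDR, Benjamini-Hochberg) below 0.05. Of the 104 genes, 102 passed its filter and 101 were called, all higher under drought. The rule used these libraries, so nothing is read from that count. It was 41, 45 and 41 without controls 1, 2 and 3, 65 and 70 without drought 1 and 3, and 104 without drought 2. In the same fits, 41.8%, 42.7% and 39.2% of all genes tested were called without controls 1, 2 and 3. Of all genes tested, 40% and 42.3% were called without drought 1 and 3, and 66.4% without drought 2. The gene tested but not called was PtXaAlbH.19G026000 (edgeR adjusted p 0.0526), and PtXaAlbH.13G084400 and PtXaAlbH.19G080500 did not pass the filter; these 3 were picked out after their values were seen.

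The nuclei libraries played no part in the choice. Levels in nuclei are UMIs summed per library and given as CPM of its gene UMIs. Summed over the 104 genes they were 723 and 634 CPM in controls 1 and 2, and 1388 and 1345 in drought 1 and 2 of the nuclei. Both drought libraries were above both controls. Without the 3 genes with the most UMIs, which held 27.8% to 43.5% of the sum, the sums were 512 and 458 CPM in watered nuclei against 784 and 818 CPM in drought nuclei. The intermediate class summed to 5064 and 3429 in controls against 4923 and 6249, with overlap between treatments, and genes raised in all 3 to 5674 and 3461 against 10026 and 15251. Sums are given as values, with no test.

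Of the 104 genes, 101 had at least 1 UMI in nuclei and 64 had 20 or more. Of all 31823 genes, 28149 had at least 1 UMI and 22626 had 20 or more. The median was 34.5 UMIs in the 104 genes and 136 over all genes. PtXaAlbH.17G118700, PtXaAlbH.19G025400 and PtXaAlbH.19G080500 had no UMI in any nuclei library. Both drought libraries were above both controls for 40 of the 104 genes (38.5%), where 22.6% of all 31823 genes were. Both were below both controls for 14 genes (13.5%), against 21.2% of all genes. The shares above and below were 41.4% and 11.7% in the intermediate class and 50.5% and 2.88% in genes raised in all 3. In the rest of the 104 genes the treatments overlapped or tied.

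The nuclei drought libraries are given side by side. The division of the bulk drought libraries was set by the rule, and the nuclei come from plants that no label ties to them, so the assays are not compared here. The counts that follow were not taken over the 22626 genes of the whole table with 20 UMIs or more, so nothing is read from them. Among the 64 genes with at least 20 UMIs, 33 were above both controls in both drought libraries, 5 in drought 1 alone and 3 in drought 2 alone. The level was higher in drought 1 for 32 genes and in drought 2 for 32, and 49 of the 64 were within 2 times of each other. PtXaAlbH.17G024000 was one that differed, at 1.61 and 0.275 CPM in controls, 12.4 in drought 1 and 1.50 in drought 2, from 7, 1, 24 and 3 UMIs. PtXaAlbH.03G064300 differed the other way, at 2.30 and 5.78 in controls, 2.59 in drought 1 and 16.5 in drought 2. PtXaAlbH.09G025900, with 11.5 and 12.9 against 16.1 and 17.0 CPM, had both drought libraries slightly above both controls.

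Differential expression was tested in nuclei with edgeR's quasi-likelihood test on UMIs summed per library, 2 drought against 2 control libraries. Of all 20768 genes tested, 8.84% were called at an FDR of 0.05, 3.63% higher and 5.21% lower under drought. Of the 104 genes, 48 passed the filter on low counts and 18 were called, 17 higher and 1 lower. Of the 48, 8 passed through the drought libraries alone, and 6 of these were called, while 1 passed through the controls alone and was called, so the share of tested genes is no measure of the list. Over all 104 genes, 17.3% were called, against 5.77% of the whole table, 9.57% of the intermediate class and 13.7% of genes raised in all 3. The order of the classes depended on the fit. With no filter on low counts 19.8% of the 101 genes with a UMI were called, against 10.0% of all genes with a UMI, 15.0% of the intermediate class and 26.0% of genes raised in all 3. The median log2 fold change in that fit was 0.38 in the list, -0.03 over all genes, 0.57 in the intermediate class and 1.20 in genes raised in all 3. In that fit the list stood below both other classes by median and between them by share called.

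The count of 18 moved with single libraries and with the tool, and so did the count over all genes, 1835. Without control library 1 it was 15, with 10.8% of all tested genes called, and without control library 2 it was 10, with 6.83%. Without drought library 1 it was 10, with 5.91% of all tested genes called, and without drought library 2 it was 8, with 3.84%. DESeq2 called 11, all among the 18, and called 1326 of all genes (4.71% of those with a UMI). It called 10.9% of the listed genes with a UMI and 13.0% of those raised in all 3. Drought nuclei were also shallower, and after thinning every library to 1930997 UMIs 16 genes were called, all among the 18. In that fit 42 of the 104 genes were tested, and 1652 of all 19711 genes tested (8.38%) were called.

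PtXaAlbH.15G096500 had the clearest response in nuclei. It had 156 and 90 UMIs in watered nuclei against 511 and 495 in drought nuclei, or 35.9 and 24.8 against 265 and 248 CPM. The drought libraries agreed closely and lay far above both controls, with a log2 difference of 3.04 with an SE of 0.23 (edgeR adjusted p 0.000425, n = 2 per group). In bulk the same gene had 8.27, 5.73 and 6.09 CPM in controls and 73.4, 10.4 and 54.4 CPM in drought 1, 2 and 3, so that bulk drought 2 was above every control but near them.

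The widest fold changes were in 4 genes with few UMIs in watered nuclei. These 4 were below the filter of 3.55 CPM in both controls and were tested only because they were high in drought nuclei, so a difference in this direction was built into their being tested. With no filter, edgeR gave them adjusted p-values from 1.478e-05 to 0.000372. That fit used the same counts, and the genes were named for their call, so it is no separate support. PtXaAlbH.13G077600 had 4 and 1 UMIs in watered nuclei against 55 and 16 in drought nuclei, a log2 difference of 4.74 with an SE of 0.79 (edgeR adjusted p 0.00877). It lost its call without drought library 1 (adjusted p 0.0525 with edgeR, the highest of its 12 alternatives). In bulk it had 0.956, 1.02 and 0.972 CPM in controls and 9.94, 0.450 and 7.18 CPM under drought, the lowest position of drought 2 among the 104 genes. PtXaAlbH.16G114300 had 5 and 3 UMIs against 14 and 34, and PtXaAlbH.04G078300 had 6 and 4 against 16 and 35. Their log2 differences between treatments were 3.52 with an SE of 0.64 (edgeR adjusted p 0.0125) and 3.30 with an SE of 0.59 (edgeR adjusted p 0.0121). Neither was called without drought library 2, the higher of the pair in both genes, where edgeR gave an adjusted p of 0.108 and 0.0983. PtXaAlbH.09G072600 had 4 and 5 UMIs against 27 and 22, a log2 difference of 3.38 with an SE of 0.54 (edgeR adjusted p 0.00784).

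Other called genes were already well detected in watered nuclei. PtXaAlbH.02G153700 had 29 and 18 UMIs in watered nuclei against 54 and 69 in drought nuclei, from libraries of lower depth, which is 6.67 and 4.95 against 28.0 and 34.6 CPM. Its log2 difference was 2.38 with an SE of 0.34 (edgeR adjusted p 0.0053). PtXaAlbH.10G149200 had 8.74 and 6.05 against 24.9 and 22.6 CPM (edgeR adjusted p 0.0207), and was not called without control library 2, drought library 1 or drought library 2. PtXaAlbH.15G026500 had 20.7 and 10.2 against 34.2 and 65.2 (edgeR adjusted p 0.031). Its log2 fold change of 1.64 was 1.09 without drought library 2, where the adjusted p was 0.185 with edgeR.

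Smaller rises were seen in 3 genes of higher UMI counts. PtXaAlbH.19G047500 had 62.8 and 44.9 CPM in controls and 146 and 139 under drought (log2 difference 1.37, SE 0.21, edgeR adjusted p 0.00745). For PtXaAlbH.07G036500 the values were 20.7 and 17.9 against 49.2 and 52.6 (log2 difference 1.36, SE 0.24, edgeR adjusted p 0.0111). PtXaAlbH.19G086700 had 40.3 and 34.1 against 84.4 and 75.7 (log2 difference 1.07, SE 0.21, edgeR adjusted p 0.015), and its adjusted p was 0.0529 without control library 2. In each of the 3, both drought libraries lay above both controls, and the drought libraries differed less than the treatments did. In bulk, drought 2 was at 0.983, 0.690 and 1.04 times the highest control in these 3 genes, a level that the rule fixed below 1.5.

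PtXaAlbH.08G084500 had the most UMIs of the 104 genes and was not called. It had 489 and 387 UMIs in watered nuclei against 375 and 277 in drought nuclei, or 113 and 106 against 194 and 139 CPM. Both drought libraries were above both controls, with drought 2 nearer to them. PtXaAlbH.10G079600, at 48.5 and 43.2 in controls against 34.7 and 41.6 CPM, had both drought libraries below both controls. It was not called either (edgeR adjusted p 0.461). Over the barcodes with at least 200 genes, its levels overlapped between treatments. In bulk it stood at 164 and 175 CPM in drought 1 and 3 against 41.1 CPM at most in controls.

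One gene was called in the other direction. PtXaAlbH.09G020400 had 38 and 19 UMIs in watered nuclei and 1 and 2 in drought nuclei, or 8.74 and 5.23 against 0.518 and 1.00 CPM. Its log2 difference in nuclei was -3.17 with an SE of 0.73 (edgeR adjusted p 0.0268), and 4 of 12 alternatives did not call it, with an adjusted p of up to 0.235. It passed the filter through the controls alone, where it was high, so its being tested favoured a fall. With no filter the edgeR adjusted p was 0.00647, from the same counts and so no separate support. In bulk it had 13.2, 14.8 and 17.1 CPM in controls and 87.6, 9.79 and 90.2 CPM under drought, with drought 2 below every control. The rule fixed bulk drought 1 and 3 as high and drought 2 as below 1.5 times the highest control, so the assays are not compared for this gene.

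**Figure D3:**
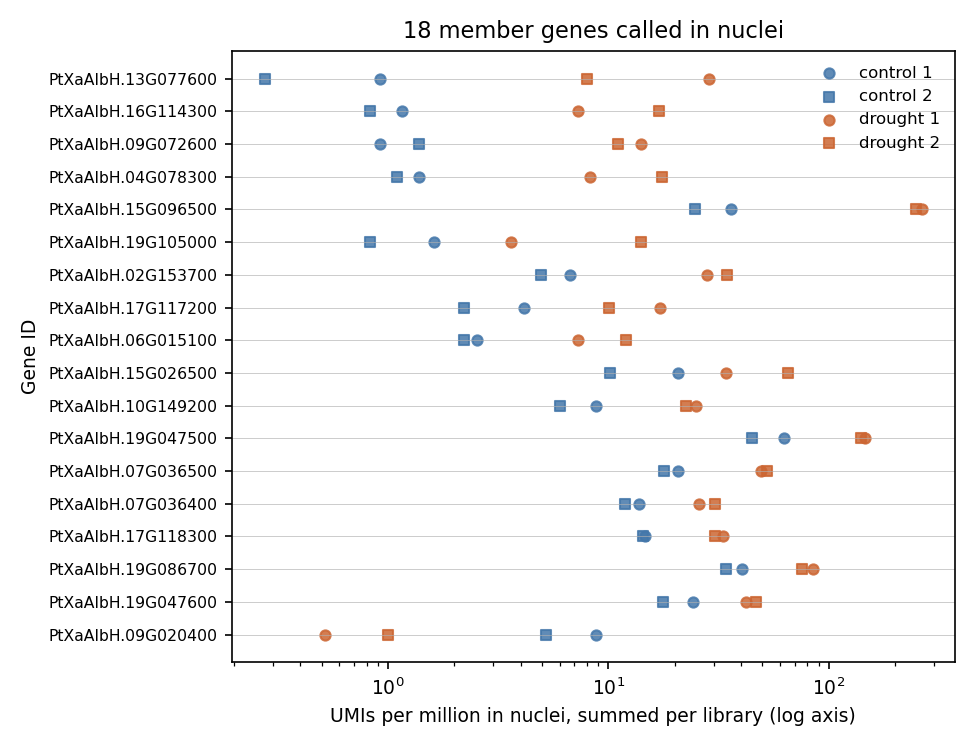
CPM in each nuclei library, on a log axis, for the 18 genes called with edgeR, ordered by fold change. Both drought libraries lie above both controls in 17 genes and below both in PtXaAlbH.09G020400.

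Some of the 104 genes have neighbouring IDs, which the rule did not use. Of them, 11 have an ID directly next to that of another of the 104 in the sorted list of IDs, in 4 pairs and 1 run of 3. That is 10.6% of the 104, against 8.02% of the 324 intermediate genes and 11.2% of the 313 genes raised in all 3. A larger class has more neighbouring IDs by its size alone, and no share for random sets was taken. The 3 percentages are therefore not compared. Whether the ID order follows the order on the chromosome is not stated in the sources used here, nor is how reads of near-identical copies were assigned, so values within a run may not be independent.

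The run of 3 had the same shape in bulk in all 3 genes. PtXaAlbH.07G036300 had 1.64, 1.54 and 1.53 CPM in controls and 22.8, 2.25 and 16.7 CPM under drought. PtXaAlbH.07G036400 had 5.30, 4.96 and 3.77 CPM against 48.2, 6.68 and 34.7 CPM. PtXaAlbH.07G036500 had 9.08, 5.38 and 5.35 CPM against 50.4, 6.26 and 42.4 CPM. All 3 were higher in drought 1 than in drought 3. In nuclei, PtXaAlbH.07G036300 had 7.13 and 7.71 CPM in controls and 10.9 and 12.03 under drought and was not called, whereas PtXaAlbH.07G036400, at 13.8 and 11.8 against 25.9 and 30.6, was (edgeR adjusted p 0.0439).

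The pair PtXaAlbH.19G047500 and PtXaAlbH.19G047600 was called higher in nuclei in both genes. The second had 24.2 and 17.6 CPM in controls and 41.9 and 46.6 under drought (edgeR adjusted p 0.0362). Of the pair PtXaAlbH.17G117100 and PtXaAlbH.17G117200, the first had 2.99 and 1.65 CPM in controls against 4.14 and 10.0. The second had 4.14 and 2.20 against 17.1 and 10.0 and was called (edgeR adjusted p 0.0358). Both drought libraries were above both controls in each gene of these pairs.

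The genes of 2 further pairs did not pass the nuclei filter, and with no filter none of them was called. PtXaAlbH.14G093600 and PtXaAlbH.14G093700 had 13.8 and 129 CPM in bulk drought 1 and 16.3 and 140 CPM in drought 3, against at most 0.851 and 6.27 CPM in controls. The second had 35 and 4 UMIs in watered nuclei against 1 and 3 in drought nuclei, and the first 4 and 1 against 0 and 1. PtXaAlbH.04G141000 had 7 and 0 UMIs against 5 and 6, and PtXaAlbH.04G141100 had 10 and 16 against 1 and 6. With no filter, the edgeR adjusted p of the 4 genes ran from 0.144 to 0.792.

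Nuclei were grouped to see where the UMIs of these genes lay. The 16950 barcodes with at least 200 genes gave 17 clusters of 10 nuclei or more, of which 14 had at least 30 nuclei in every library. This left out 3456 of 20406 barcodes, most of them from the shallower drought libraries. The 104 genes, the other classes and all genes called in nuclei were left out of the clustering. Clusters are numbered by size and not named. Barcodes shared between libraries numbered 18 to 56 for each pair, at most 1.33% of the smaller library.

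The UMIs of the 104 genes were counted per cluster, and in 11 of the 14 clusters both drought libraries were above both controls. The same held in 2 clusters for the intermediate class and in 12 for genes raised in all 3, a comparison added after the values were seen. The share of UMIs that comes from free RNA was not measured, so a UMI in a cluster is not read as expression there. Cluster 1 held 16.7% and 22.6% of watered nuclei but 34.9% and 35.3% of drought nuclei in the 4 libraries, and the part of this in the library sums was not tested. Within it there were 9.12 and 7.15 such UMIs per 10000 UMIs in watered nuclei against 20.3 and 20.3 in drought nuclei. In cluster 2 there were 7.22 and 5.51 against 15.5 and 13.4. Cluster 3 was lower than clusters 1 and 2 in every library, at 4.29 and 4.14 against 8.33 and 6.07. The 4 libraries overlapped between treatments in cluster 7, at 12.2 and 9.41 against 10.4 and 10.5, and also in clusters 8 and 9. Without the 3 genes with the most UMIs, 11 clusters again had both drought libraries above both controls and 3 overlapped. Clusters of 1 library share its plant and preparation, and differences between clusters were not tested.

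**Figure D4:**
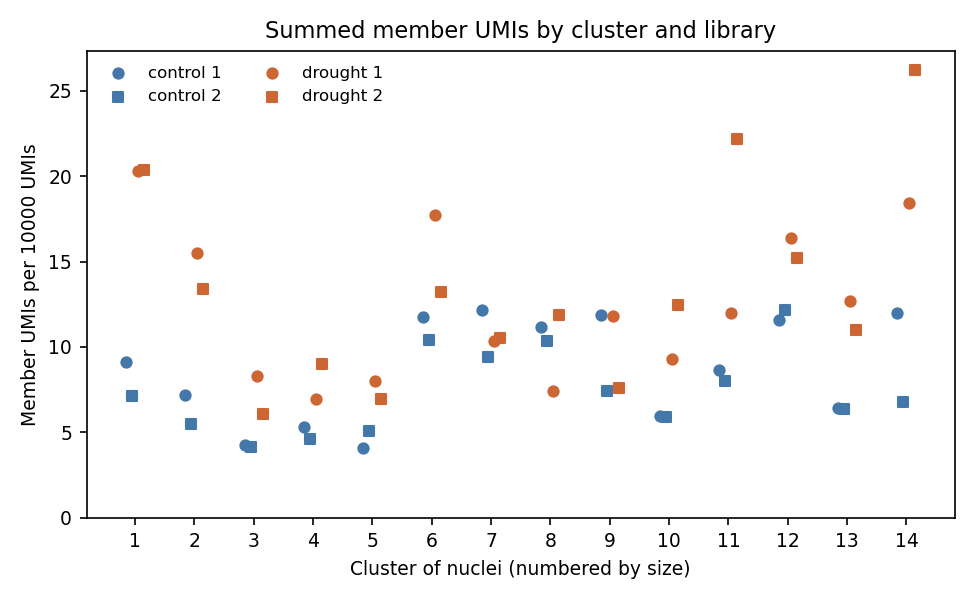
UMIs of the 104 genes per 10000 UMIs, summed in each cluster of nuclei, for the 2 control and 2 drought libraries. Both drought libraries are above both controls in 11 of 14 clusters and overlap with them in clusters 7, 8 and 9.

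PtXaAlbH.15G096500 differed in level between the clusters. In cluster 1 it had 1.23 and 0.541 UMIs per 10000 in controls and 5.61 and 4.86 under drought, and in cluster 14 it had 4.85 and 0.887 against 4.73 and 10.4. In cluster 3 it had 0.0752 and 0.0615 against 0.270 and 0.217. Both drought libraries were above both controls in 11 of the 14 clusters for this gene. For PtXaAlbH.19G047500 they were in 8 clusters and for PtXaAlbH.08G084500 in 7, while for the latter both were below both controls in 2. PtXaAlbH.10G079600 had both drought libraries above in 2 clusters and below in 4, and overlapped in 8. Some of these directions rest on few UMIs. In cluster 9, PtXaAlbH.15G096500 had 1 and 1 UMIs in controls against 2 and 2 under drought. There PtXaAlbH.10G079600 had 5 and 2 against 0 and 0. These UMIs are part of the library sums, so the clusters are no separate support for a call. The same tally was not taken over all genes.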

How the data were processed

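As deposited, the bulk values are whole-number read counts for each gene and the nuclei values are UMI counts for each feature in each barcode, judged from the files' columns and values. HISAT2 is named in the submitters' processing notes, with no role or version; how reads were counted, whether strand was used, the genome build and how barcodes were selected are each not stated in the sources used. Of 31848 nuclei features, 25 named as transfer or ribosomal RNA (0.0574% to 0.478% of UMIs per library) were left out.

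CPM was computed from column totals. The genes, the classes and the rule for naming genes were chosen with earlier results of these data known. Named were the 4 genes highest in drought 1 and 3, the 4 with the largest ratio (controls set to at least 3 counts), the 4 with most UMIs, the first 12 called in nuclei by adjusted p, the genes beside each threshold, and members of ID runs, added after their values were seen. Differential expression used edgeR 4.0.16 in R 4.3.3 (TMM scaling, filterByExpr, quasi-likelihood F test, Benjamini-Hochberg adjustment over all genes tested, FDR 0.05), with DESeq2 1.42.0 as an alternative. Each SE is the size of the log2 fold change over the root of its F statistic. The fit was also run on simulated libraries of equal spread. None of them was set apart as bulk drought 2 was, so that run does not cover such data. Position of drought 2 used log2(CPM + 0.5). Replicates differed by more than sampling noise (chi-square per degree of freedom 4.30 or more).

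Nuclei counts were scaled to 10000 and log-transformed, the 2000 most variable genes standardised within each library, reduced to 30 components and joined by 15 shared neighbours for Leiden clustering (resolution 0.5). No doublet caller was run, so clusters may hold doublets. Alternatives were other limits in the rule, other scaling, filters and tools, a replicate block, thinned libraries and leaving out each library; a crossed block, the sums without the 3 genes with most UMIs and the clusters for the other classes were added after seeing the data.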

Additional observations from a re-analysis of the deposited data

How the results depend on the processing

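The number of genes that met the rule was 186 at 3 times and 54 at 6 times the highest control, and 165 with drought 2 allowed up to 2 times. It was 73 to 140 under the other limits on drought 2 and the CPM floor, 114 with TMM-scaled library sizes (94 of them among the 104), and 101 to 108 leaving out a control. The rule needs all 3 drought libraries. In nuclei, 2816 genes were called with no filter on low counts and 853 to 2241 leaving out a library, against 1835. Genes of the list called in nuclei numbered 11 with DESeq2 and 8 to 15 leaving out a library, against 18; those called in bulk numbered 41 to 104 leaving out a library, against 101, and the count of all genes called in bulk 10513 to 17816, against 14329. The median log2 fold change of all bulk genes moved from 0.01 to -0.12 without scaling beyond library size, where 5802 of 14376 calls were higher. Same-numbered bulk libraries did not deviate together (correlations of -0.002 to 0.030), and with the replicate block 57 genes of the list were called in bulk and 12779 of all genes. In nuclei the correlation was -0.109. The replicate block gave 14 genes of the list and 1672 genes in all, and a crossed replicate block, chosen after seeing the data, 18 and 2792. For the 12 genes named as called in nuclei, 132 of 144 values under the alternatives were called in the same direction, the other 12 had the same direction without a call, and 5 genes were called each time. The cause of these shifts was not tested. In nuclei, 56 of the 104 genes did not pass the filter. The share that passed was 46.15% of the 104 genes and 65.26% of all genes. It was 62.35% of the intermediate class and 53.99% of genes raised in all 3. Whether depth has a part in these shares was not tested.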
